A study of Mus musculus with 6 samples.

Results

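The 10 genes described here encode enzymes that carry glucose to lactate in order: Hk2, Gpi1, Pfkl, Aldoa, Tpi1, Gapdh, Pgk1, Pgam1, Pkm and Ldha. They were chosen by symbol, 1 gene per pathway step with enolase left out, and with earlier results of these data known. All 10 had a row among the 23197 genes of the count table. RNA had been sequenced from mouse primary vascular smooth muscle cells, bought from a supplier, in 3 control libraries transfected with a negative control and 3 libraries transfected with an siRNA against Arid3a (siArid3a), a DNA-binding protein gene. Both groups were incubated for 24 h after transfection. The labels number the siRNA libraries, but whether these are different siRNAs or separate cultures is not stated. They also mention angiotensin II for 36 h, and do not tie it to any of the 6 libraries. What the p-values below weigh is library-to-library spread, and that spread could be technical alone.

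Glycolysis splits glucose into pyruvate and yields ATP without oxygen. Its first enzymes spend ATP to make a doubly phosphorylated sugar and cut it into triose phosphates, and the later enzymes recover ATP and NADH. Lactate dehydrogenase then turns pyruvate to lactate and renews the NAD that the pathway needs. Vascular smooth muscle is known to make lactate even where oxygen is present, and many of these genes are textbook targets of hypoxia-inducible factors and of Myc.

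The targeted transcript gave no sign of depletion: its groups overlapped in the libraries labelled siArid3a and the controls. Arid3a stood at 19.5, 16.8 and 22.6 CPM (the count as a rate over the TMM-scaled library total) in control libraries 1, 2 and 3 and at 16.6, 21.5 and 19.8 CPM in the libraries labelled siArid3a. Its log2 fold change came to −0.03 (SE 0.13, edgeR adjusted p = 0.943). Each direction below is therefore that of the label and not of a measured loss of Arid3a. The 10 smooth muscle markers differed widely in their mean level in the controls. Cald1 had 1413 CPM, Acta2 540.7, Tpm2 209.9, Smtn 71.9 and Cnn1 30.2 CPM. Lmod1 had 4.49 CPM, Tagln 1.46 and Myocd 1.02 CPM, while Myh11 was near 0 at 0.233 CPM and Des at 0.676 CPM. Total counts ran from 17029735 to 22799935 per library.

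The comparison asked how the 10 enzyme genes differ between the libraries labelled siArid3a and the controls. Mean values were lower in 9 of the 10 genes, the exception being Hk2, and the largest difference was at Pfkl, a gene of the committed step. In Gapdh, Pgk1 and Pgam1, which are among the 9, the groups overlapped. Each step is read here through 1 gene, and other isozymes of the same steps are described below. None passed the edgeR test: 0 of the 10 had an adjusted p under 0.05, where 0.0% of the 13234 genes tested did. At an unadjusted p under 0.05, 1976 genes lay past the threshold, 7.57% of those tested lying there with lower values, and 6 of the 10 members did so: Gpi1, Pfkl, Aldoa, Tpi1, Pkm and Ldha. The count of genes called was also 0 with limma-voom, and 223 with DESeq2. DESeq2 called 3 members lower, Pfkl, Tpi1 and Pkm, against 0.877% of the genes tested, and 0 higher, against 0.809%.

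Of the log2 fold changes of all genes tested, 51.1% lay below 0 and the median was −0.01, while 9 of the 10 members lay below 0 with a median of −0.21. In 6 members the groups did not overlap, all with lower values in the libraries labelled siArid3a, where 10.4% of the genes tested did so. No member lay apart in the higher direction, where 9.66% of the genes tested did. The 10 genes together held 1.30%, 1.26% and 1.33% of all gene counts in control libraries 1, 2 and 3, against 1.08%, 1.18% and 1.06% in siArid3a libraries 1, 2 and 3. Their share was thus lower in each library labelled siArid3a than in any control. In bulk RNA, fewer cells of a type and less RNA per cell cannot be told apart. Markers fixed for epithelial and mesothelial cells also had a lower summed level, 152 to 173 CPM in the controls against 127 to 145 CPM, with 3 of their 5 genes tested, all 3 below 0, and Epcam at or near 0. Of the 5 fibroblast markers tested, 4 lay below 0, and in 1, Dcn, the groups did not overlap. DESeq2 called Dcn lower (adjusted p = 0.0137), and Krt19 of the epithelial and mesothelial markers (adjusted p = 0.0341), against 0.877% of the genes tested. Dcn had 519 CPM in the controls on average and 371 CPM in the siArid3a libraries. Col1a1 had 1003 CPM in the controls on average and 1061 CPM in the siArid3a libraries, and the summed fibroblast markers overlapped. Of the 9 smooth muscle markers tested, 4 lay below 0, with a median of 0.03 on the log2 scale, and 0 lay apart in either direction. DESeq2 called 0 of them. Of the macrophage markers, which had few reads, 3 were tested and all 3 lay below 0. The groups lay apart in 1 of these, Csf1r, and the summed macrophage markers overlapped. The part of these markers in the result was not tested.

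The number of members called varied with the fit. With no filter on low counts edgeR called 3 members lower (Pfkl, Tpi1 and Pkm), where 1.08% of genes were called lower, and with the trend on GC and length taken out it called 3 (Gpi1, Pfkl and Tpi1), where 1.44% were. It called 1, Pfkl, without control library 2 (0.445% of genes called lower) and 1, again Pfkl, without siArid3a library 2 (0.126%). It called 0 members without control library 3 (0.391%), and 0 genes at all when any of the other 3 libraries was left out.

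**Figure D1:**
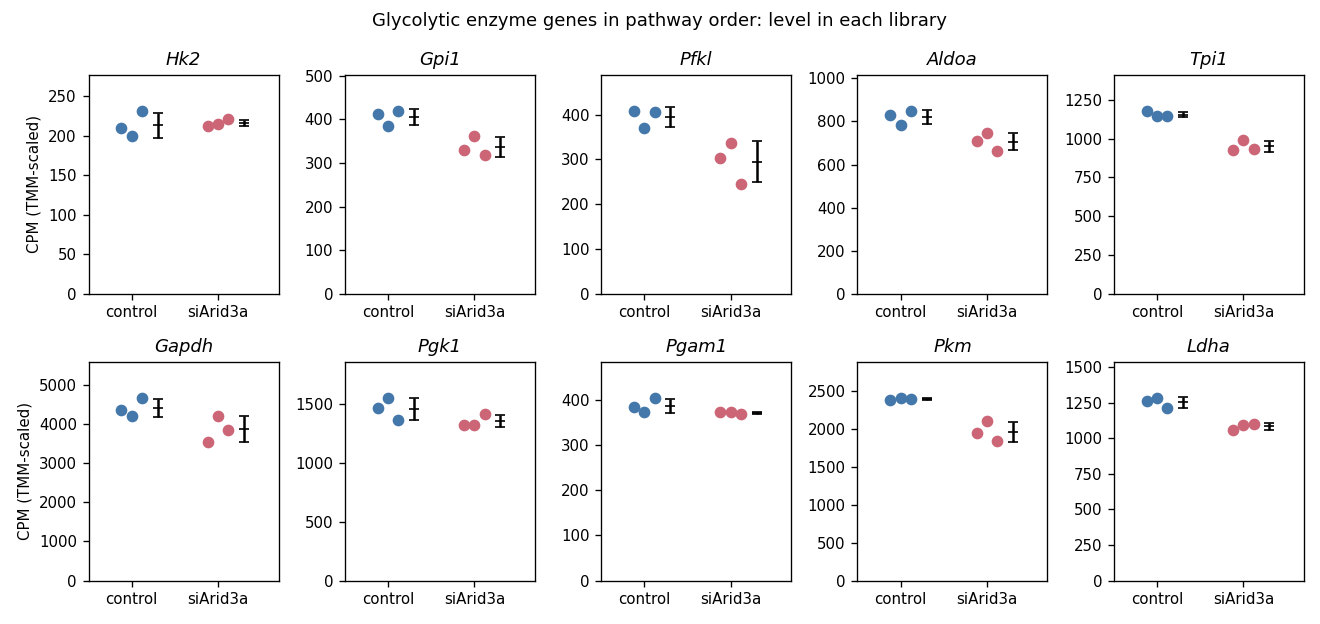
Level of each of the 10 genes in each library, as CPM on a linear axis from 0 (points, 3 control and 3 siArid3a libraries; bars, mean and SD of 3). Pfkl, Gpi1, Aldoa, Tpi1, Pkm and Ldha do not overlap between groups, while Hk2, Gapdh, Pgk1 and Pgam1 do.

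The first step is phosphorylation of glucose by hexokinase, and Hk2 (ENSMUSG00000000628, mm10 chromosome 6, 82725025 to 82774454, minus strand) encodes the inducible isozyme that binds mitochondria. Hk2 had 209.7, 199.8 and 231 CPM in control libraries 1, 2 and 3, and 213, 215 and 221 CPM in siArid3a libraries 1, 2 and 3. All 3 siArid3a values lay inside the control range. The log2 fold change came to 0.02 (SE 0.08, edgeR adjusted p = 0.934), and its 95% interval ran from 90.4% to 114% of the control level.

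Gpi1 (ENSMUSG00000036427, chromosome 7, 34201330 to 34230336, minus strand) encodes the isomerase that turns glucose-6-phosphate into fructose-6-phosphate. It had 413, 386 and 419 CPM in control libraries 1, 2 and 3, and 331, 363 and 318 CPM in siArid3a libraries 1, 2 and 3. Every siArid3a library lay below every control. The level was 83.1% of the control (log2 fold change −0.27, SE 0.08, edgeR adjusted p = 0.157).

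Pfkl (ENSMUSG00000020277, chromosome 10, 77986947 to 78010083, minus strand) encodes the liver-type phosphofructokinase, the enzyme of the committed and most regulated step. The controls had 408, 370.3 and 407 CPM in libraries 1, 2 and 3, and the siArid3a libraries 304, 337 and 246 CPM. The groups did not overlap, and siArid3a library 3 was the lowest of the 6. The control mean was 395 ± 21.4 CPM and the siArid3a mean 295 ± 46.1 CPM (SD, n = 3 each), which is 74.8% of the control with a 95% interval from 64.3% to 86.9%. The log2 fold change came to −0.42 (SE 0.10, edgeR adjusted p = 0.114, DESeq2 adjusted p = 0.0177). edgeR called Pfkl without control library 2 (−0.46, adjusted p = 0.0439) and without siArid3a library 2 (−0.52, adjusted p = 0.0477). Without siArid3a library 3 the log2 fold change was −0.30.

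Aldolase and triose phosphate isomerase follow. Aldoa (ENSMUSG00000030695, chromosome 7, 126795234 to 126800751, minus strand), which encodes the aldolase that cuts fructose bisphosphate, had 829, 783 and 847 CPM in control libraries 1, 2 and 3, against 708, 746 and 665 CPM in siArid3a libraries 1, 2 and 3. The groups did not overlap, and the level was 86.1% of the control (log2 fold change −0.22, SE 0.08, edgeR adjusted p = 0.234). Of the exonic bases of Aldoa, 49.4% lie outside other genes, the rest under Fam57b, so reads there may not have been counted. Tpi1 (ENSMUSG00000023456, chromosome 6, 124810586 to 124814296, minus strand), which encodes the isomerase that joins both triose phosphates into 1 stream, had 1177, 1145 and 1145 CPM in control libraries 1, 2 and 3, against 925, 989 and 937 CPM in siArid3a libraries 1, 2 and 3. The 3 controls lay close together, and all were above the siArid3a libraries. The level was 82.2% of the control, 95% interval 73.2% to 92.4% (log2 fold change −0.28, SE 0.08, edgeR adjusted p = 0.141, DESeq2 adjusted p = 0.0200).

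Gapdh (ENSMUSG00000057666, chromosome 6, 125161715 to 125166467, minus strand) encodes the dehydrogenase that makes NADH, and its transcript is widely used as a reference. It had 4367, 4207 and 4672 CPM in control libraries 1, 2 and 3, and 3559, 4222 and 3851 CPM in siArid3a libraries 1, 2 and 3. The groups overlapped, since siArid3a library 2 lay above control library 2. The level was 87.8% of the control with a 95% interval from 76.4% to 101% (log2 fold change −0.19, SE 0.09, edgeR adjusted p = 0.366).

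The next enzymes, phosphoglycerate kinase and phosphoglycerate mutase, differed less. Pgk1 (ENSMUSG00000062070, chromosome X, 106187100 to 106203699, plus strand), whose product makes the first ATP of the pathway, had 1465, 1553 and 1366 CPM in control libraries 1, 2 and 3, against 1323, 1328 and 1416 CPM in siArid3a libraries 1, 2 and 3. Pgam1 (ENSMUSG00000011752, chromosome 19, 41911923 to 41918660, plus strand), whose product moves the phosphate group of phosphoglycerate, had 383, 372 and 403 CPM in the controls and 372, 373 and 369 CPM in the siArid3a libraries. The groups overlapped in both genes. The log2 fold change came to −0.11 (SE 0.09, edgeR adjusted p = 0.581) for Pgk1 and −0.06 (SE 0.07, edgeR adjusted p = 0.764) for Pgam1. The 95% intervals reached down to 81.8% and 86.1% of the control level, so these data do not show that either gene was at the control level.

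Pyruvate kinase and lactate dehydrogenase end the pathway. Pkm (ENSMUSG00000032294, chromosome 9, 59656368 to 59679375, plus strand), whose product makes pyruvate and ATP, had 2382, 2408 and 2398 CPM in control libraries 1, 2 and 3, against 1953, 2102 and 1842 CPM in siArid3a libraries 1, 2 and 3. The controls were close together and all lay above the siArid3a libraries, whose spread was wider. The level was 82.0% of the control, 95% interval 72.3% to 93.1% (log2 fold change −0.29, SE 0.09, edgeR adjusted p = 0.157, DESeq2 adjusted p = 0.0289). Counts per gene do not separate the splice forms of Pkm, and other genes overlap Pkm over all but 84.7% of its exonic bases. Ldha (ENSMUSG00000063229, chromosome 7, 46841475 to 46855627, plus strand), which encodes the muscle-type subunit that favours lactate, had 1263, 1281 and 1210 CPM in control libraries 1, 2 and 3, against 1055, 1092 and 1098 CPM in siArid3a libraries 1, 2 and 3. The groups did not overlap, and the level was 86.4% of the control (log2 fold change −0.21, SE 0.08, edgeR adjusted p = 0.232).

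**Figure D2:**
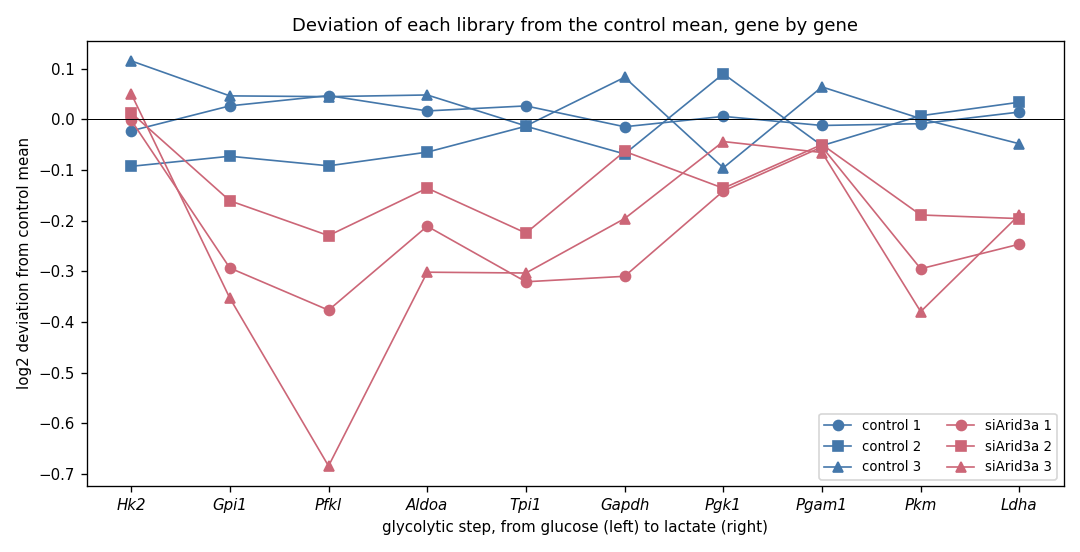
Log2 deviation of each library's CPM from the control mean (vertical axis) for the 10 genes in pathway order (horizontal axis), 1 line per library. The siArid3a lines are lowest at Pfkl, down to −0.68 in library 3, and overlap the control lines at Hk2, Gapdh, Pgk1 and Pgam1.

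The 5 genes from Hk2 to Tpi1 had a median log2 fold change of −0.27 and the 5 from Gapdh to Ldha of −0.19, and the difference between these medians was not tested. Taken over the 10 genes, siArid3a libraries 1, 2 and 3 deviated from the mean control by a median of −0.27, −0.15 and −0.25, and control libraries 1, 2 and 3 by 0.01, −0.06 and 0.05. The siArid3a libraries all lay below the controls on this measure, with library 2 nearest to them. Across all 6 libraries the profile of Hk2 stood apart from the other members: its median Pearson correlation with them was −0.11, against 0.89 for Gpi1, Tpi1 and Pkm and 0.27 for Pgk1. These are descriptions over 6 libraries that include the difference between groups.

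Ratios between neighbouring steps within a library do not depend on how libraries are scaled. Of 10 such ratios, with enolase placed between Pgam1 and Pkm, 4 did not overlap between groups. Ratios next to each other share a gene, such as Gpi1 or Pfkl, so the 10 are not independent. Between Gpi1 and Hk2 counts the log2 ratio was 0.98, 0.95 and 0.86 for the 3 controls in order and 0.64, 0.76 and 0.53 for the siArid3a libraries, which differ by −0.29. The ratio of Pfkl to Gpi1 differed by −0.16, that of Aldoa to Pfkl by 0.21 and that of Pkm to Eno1 by −0.23. Without siArid3a library 3, which moved these 3 ratios the most, they differed by −0.0760, 0.13 and −0.13. Each of these 4 had p = 0.1 in a two-sided exact permutation test, the smallest that 3 against 3 libraries can give, and an adjusted p of 0.250 over the 10 ratios. The other 6, from Tpi1 over Aldoa to Ldha over Pkm, overlapped and differed by −0.07 to 0.09.

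Levels between genes were compared per kilobase of the principal transcript. Gapdh was the most abundant of the 10 at 3110 ± 166 CPM per kilobase in the controls (SD, n = 3), followed by Pkm at 985 ± 5.42 and Pgk1 at 801 ± 51.4. Tpi1 at 719 ± 11.5 and Ldha at 709 ± 20.9 CPM per kilobase came next, and their control libraries overlapped, so their order was not resolved. Below them came Aldoa at 543 ± 21.7, Pgam1 at 217 ± 8.92, Gpi1 at 141 ± 6.15, Pfkl at 106 ± 5.73 and Hk2 at 38.7 ± 2.87 CPM per kilobase. Apart from Tpi1 and Ldha, no neighbours in this order overlapped over the 3 controls. The place of Aldoa is not settled, since other genes cover all but 49.4% of its exons and reads there may be uncounted. The 3 least abundant genes were thus those of the first 3 steps, and Pfkl, with the largest difference between groups, was among them.

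Of the other isozymes of these steps, 11 tested genes are described here, and these 11 had log2 fold changes below 0 with a median of −0.32, where 51.1% of all genes tested lay below 0 with a median of −0.01. edgeR called 0 of them, and DESeq2 called 1 lower, Ldhb, against 0.877% of all genes tested. Hk1, the hexokinase of most tissues, had 215, 204 and 221 CPM in control libraries 1, 2 and 3, against 172, 192 and 148 CPM in siArid3a libraries 1, 2 and 3 (log2 fold change −0.32, SE 0.09, edgeR adjusted p = 0.143), and the groups did not overlap. The log2 ratio of Hk2 to Hk1 counts was −0.04, −0.03 and 0.06 in the controls and 0.31, 0.16 and 0.57 in the siArid3a libraries, a difference of 0.35. Hk2 counts thus exceeded Hk1 counts in every siArid3a library, and in 1 of the 3 controls. These counts are not scaled by transcript length. Per kilobase of the principal transcript the mean of Hk2 was below that of Hk1 in both groups. It was 38.7 against 55.4 CPM in the controls and 39.2 against 44.4 CPM in the siArid3a libraries.

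Pfkm and Pfkp, the muscle and platelet types of phosphofructokinase, differed by −0.29 (SE 0.09) and −0.28 (SE 0.08) on the log2 scale, with edgeR adjusted p = 0.174 and 0.141. Their groups did not overlap either, so all 3 phosphofructokinase genes had lower values in each siArid3a library than in any control. Of all genes tested, 10.4% lay apart in this direction. The ratios of Pfkl to Pfkm and to Pfkp overlapped, with differences of −0.14 and −0.15, and of −0.0317 and −0.0261 without siArid3a library 3. Ldhb, the heart-type lactate dehydrogenase subunit, had 58.6, 59.0 and 53.3 CPM in control libraries 1, 2 and 3 and 44.2, 46.0 and 29.4 CPM in siArid3a libraries 1, 2 and 3. Its log2 fold change came to −0.52 (SE 0.13, edgeR adjusted p = 0.122, DESeq2 adjusted p = 0.0273), and siArid3a library 3 was the lowest. The log2 ratio of Ldha to Ldhb was 4.43, 4.44 and 4.50 in the controls and 4.58, 4.57 and 5.22 in the siArid3a libraries, a difference of 0.33, which was 0.12 without siArid3a library 3. The ratio of Aldoa to Aldoc differed by 0.10 and overlapped. Over these 5 isozyme ratios, Hk2 to Hk1 and Ldha to Ldhb had an exact permutation p = 0.1 and an adjusted p of 0.250, and the others an adjusted p of 0.500.

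Enolase, which acts between phosphoglycerate mutase and pyruvate kinase, is represented by Eno1 at 1914, 1899 and 2066 CPM in control libraries 1, 2 and 3, against 1719, 1913 and 2017 CPM in siArid3a libraries 1, 2 and 3. The groups overlapped (log2 fold change −0.06, SE 0.09, edgeR adjusted p = 0.810). Pgk1, Pgam1 and Eno1, which act in a row, thus had the smallest differences after Hk2 among the 10 genes and Eno1. The neuronal and muscle enolases Eno2 and Eno3 differed by −0.35 (SE 0.14) and −0.20 (SE 0.08) on the log2 scale. Bpgm, the mutase of red blood cells, had −0.18 (SE 0.12). Of the isozymes with few reads, Hkdc1 had −0.67 (SE 0.30), Pgam2 −0.54 (SE 0.29) and Aldoc −0.37 (SE 0.41), none with an edgeR adjusted p under 0.301.

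**Figure D3:**
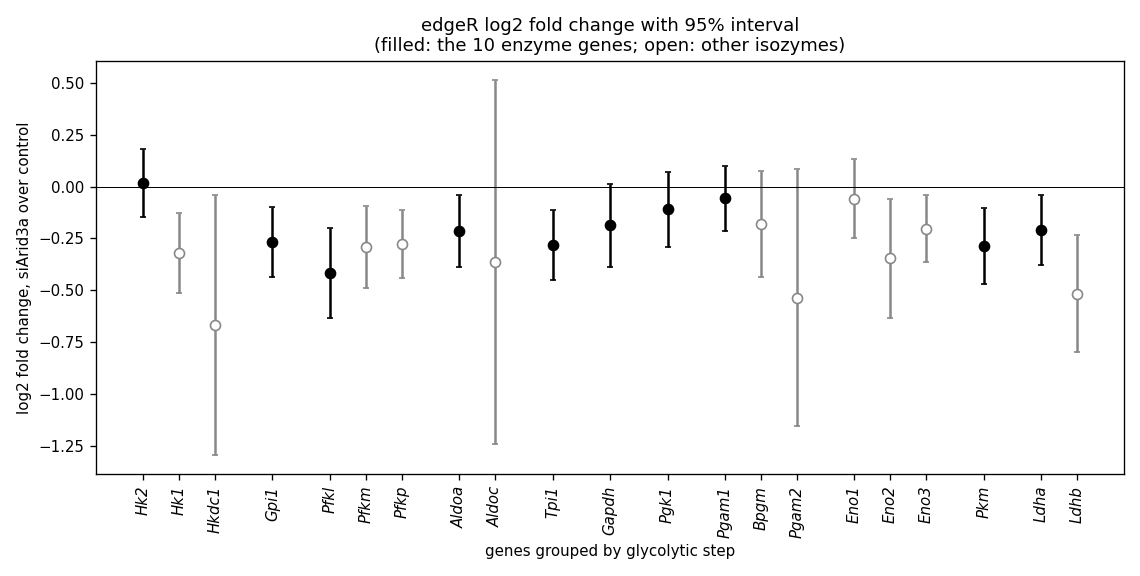
edgeR log2 fold change of siArid3a over control (vertical axis, bars are 95% intervals, 3 libraries a group) for the 10 enzyme genes (filled) and 11 other isozymes (open), grouped by step. All of these but Hk2 lie below 0, and the intervals of Aldoc, Hkdc1 and Pgam2, genes with few reads, are wide.

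Other genes that feed or drain the pathway were compared from lists, of which edgeR called 0 genes in any. As for the members, this varied with the fit: among the genes named by rule from these lists and the isozymes, edgeR called 8 with no filter on low counts (Hk1, Ldhb, Myc, P4ha2, Pdk1, Pgm1, Pygl and Slc16a1), 8 with the trend on GC and length taken out (Hk1, P4ha1, P4ha2, Pdk1, Pfkp, Pgm1, Pygl and Slc16a1), 3 without control library 2 (P4ha2, Pdk1 and Pgm1) and 1 without control library 3 (Myc). The rule named the gene with the smallest p of each list in these same data, so these counts carry no weight as a result about the lists. Over all genes, edgeR called 439 of 23197 with no filter and 362 of 13221 with the trend taken out. It called 135 of 13496 without control library 2 and 94 of 13542 without control library 3. The counts below are to be read against all genes tested, of which 51.1% lay below 0, 0.877% were called lower and 0.809% higher by DESeq2, and 10.4% lay apart with lower values. Of 13 transport and flux genes tested, 8 lay below 0 (median −0.07 on the log2 scale), and DESeq2 called 1 higher and 2 lower. Slc16a1, a lactate and pyruvate transporter gene, had 126, 137 and 136 CPM in control libraries 1, 2 and 3 and 160.1, 156 and 187 CPM in siArid3a libraries 1, 2 and 3. It was thus higher in each siArid3a library than in any control (log2 fold change 0.33, SE 0.08, edgeR adjusted p = 0.117, DESeq2 adjusted p = 0.0289). Slc16a3, the lactate exporter gene of glycolytic cells, picked after its values were seen, had 132, 117 and 125 CPM in the controls and 95.4, 109 and 94.1 CPM in the siArid3a libraries (log2 fold change −0.32, SE 0.08, edgeR adjusted p = 0.122, DESeq2 adjusted p = 0.0435). The phosphoglucomutase gene Pgm1 had −0.35 (SE 0.08, DESeq2 adjusted p = 0.0188), and Bsg, the partner protein of the lactate transporters, −0.11 (SE 0.08).

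Of 13 genes of pyruvate entry to mitochondria, 4 lay below 0 (median 0.04 on the log2 scale). DESeq2 called 1 of them, Pdk1, a kinase that switches off pyruvate dehydrogenase, at 46.7, 41.8 and 41.8 CPM in control libraries 1, 2 and 3 and 33.7, 33.9 and 29.3 CPM in siArid3a libraries 1, 2 and 3. The groups did not overlap (log2 fold change −0.43, SE 0.10, edgeR adjusted p = 0.112, DESeq2 adjusted p = 0.0188). The dehydrogenase subunit genes Pdha1 and Dld had −0.01 (SE 0.07) and 0.19 (SE 0.11).

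The tricarboxylic acid cycle list had 8 of 20 genes below 0, the median being 0.02 on the log2 scale, with citrate synthase Cs at 0.04 (SE 0.08), Idh3a at 0.16 (SE 0.08) and Mdh2 at −0.00 (SE 0.08). Pentose phosphate genes had 5 of 7 below 0 and a median of −0.03, with Tkt at −0.03 (SE 0.09), Pgd at −0.04 (SE 0.07) and H6pd at −0.21 (SE 0.11). Glycogen genes had 7 of 10 below 0 and a median of −0.05, and in 3 of the 10 the groups lay apart with lower values. The groups also lay apart in this direction in 7 of the 11 isozymes, 4 of the 13 transport and flux genes and 3 of the 20 cycle genes. They did so in 5 of the 17 hypoxia genes described below, against 10.4% of all genes tested. Of the glycogen phosphorylases, Pygl had −0.49 (SE 0.14) and Pygb −0.18 (SE 0.08), and the lysosomal glucosidase Gaa had −0.06 (SE 0.12). The list of hexosamine, polyol, glycerol and serine branches had 3 of 10 below 0 and a median of 0.07, with Phgdh at 0.12 (SE 0.09), Psat1 at 0.07 (SE 0.09) and Gfpt2 at 0.30 (SE 0.11). Of 3 gluconeogenesis genes tested, 2 lay below 0, with Pcx at −0.16 (SE 0.14) and Pck2 at 0.07 (SE 0.08).

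Hypoxia-inducible factors and targets outside glycolysis had 14 of 17 genes below 0, the median being −0.22 on the log2 scale. Hif1a, Ero1l and Adm had no row under these symbols and are not among the 17. DESeq2 called 1 of them, P4ha2, a collagen prolyl hydroxylase gene, at 168, 140.2 and 160.0 CPM in control libraries 1, 2 and 3 and 117, 128 and 109.5 CPM in siArid3a libraries 1, 2 and 3 (log2 fold change −0.40, SE 0.09, edgeR adjusted p = 0.1, DESeq2 adjusted p = 0.0126). P4ha1 had −0.25 (SE 0.07), and the angiogenic factor gene Vegfa −0.01 (SE 0.09). Transcription factors known to act on glycolytic genes had 4 of 12 below 0 and a median of 0.03, with Trp53 at 0.04 (SE 0.08) and Klf4 at 0.06 (SE 0.10). Myc had 177, 149 and 209 CPM in control libraries 1, 2 and 3, against 215, 214 and 246 CPM in siArid3a libraries 1, 2 and 3. Its values were thus higher in each siArid3a library than in any control (log2 fold change 0.33, SE 0.11, edgeR adjusted p = 0.174).

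**Figure D4:**
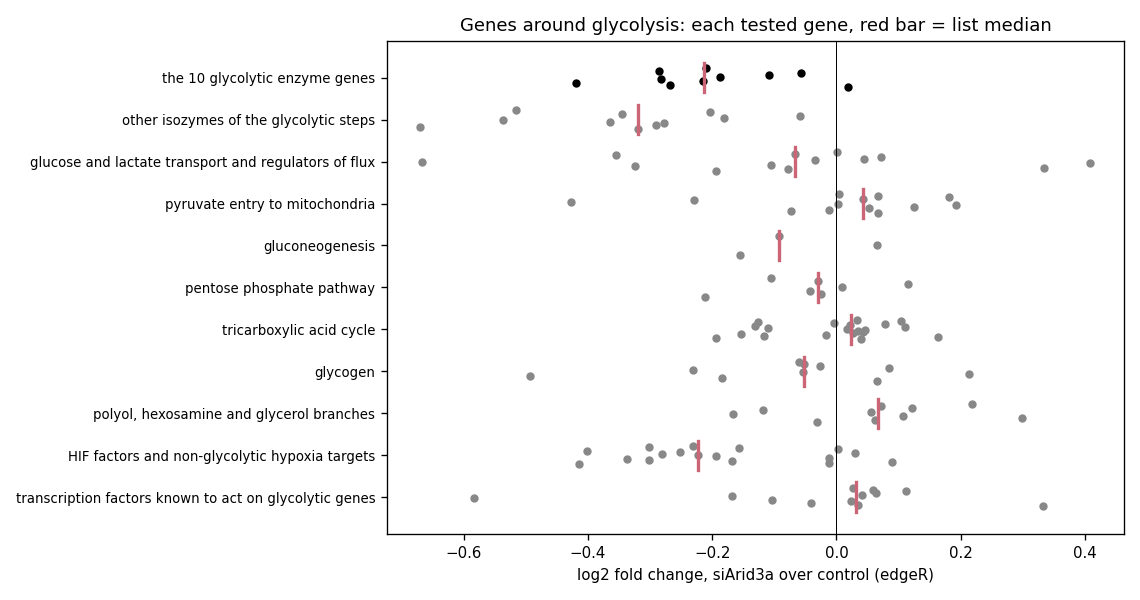
edgeR log2 fold change of siArid3a over control (horizontal axis) for each tested gene of the lists around glycolysis, with marker lists left out and the list median as a red bar. The medians of the 10 enzyme genes, the other isozymes and the hypoxia list lie at −0.21, −0.32 and −0.22, and those of the other lists plotted between −0.09 and 0.07.

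The 5 genes outside the set whose log2 CPM over the 6 libraries was most like the mean profile of the 10 genes were Mapk3, Hoxb4, Pacsin3, Aqp1 and Zfp618, with Pearson correlations of 0.992 to 0.995 over 6 libraries. Of these, the kinase gene Mapk3 differed by −0.16 (SE 0.07) on the log2 scale and the water channel gene Aqp1 by −0.28 (SE 0.08), and none passed the edgeR test (adjusted p from 0.114 to 0.363). Zfp618 had few reads, its mean level being 1.29 CPM (control) and 0.684 CPM (siArid3a). The 5 were picked for the highest correlations over 6 libraries, so high values follow in part from that choice. The mean profile was also higher in each control than in any siArid3a library, so these correlations include the difference between groups.

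The 10 genes lie on 6 chromosomes, and no member neighbours another closely except Tpi1 and Gapdh, with 347418 bases between them on chromosome 6. RefSeq promoters (GRCm38.p6, 250 bases before to 50 after a start) were found for all 10, with 14 promoters in all since Aldoa, Pkm and Ldha have several starts. They were searched on both strands for ACGTG, a core of hypoxia-inducible factor sites, for CACGTG, the E-box that Myc binds and which contains ACGTG, and for GGGCGG, the GC box of Sp1. ACGTG was in 8 of the 14 promoters, covering 7 of the 10 genes, against 19.6% of all 32851 promoters, with no allowance for base composition or for starts that overlap. CACGTG was in 1 of the 14, that of Ldha, against 7.15% of all promoters, and GGGCGG in 10 of the 14 against 35.7%.

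Promoters are shown for the 3 members that DESeq2 called, Pfkl, Pkm and Tpi1, with log2 fold changes of −0.42, −0.29 and −0.28, for Hk2 at 0.02, and for Ldha, with the most ACGTG matches. Of the several starts of Pkm and Ldha, the window with the most matches is shown. Each is written 5′ to 3′ on the gene's strand, with ACGTG or its reverse complement in capitals. The windows are chr10:78009758-78010057 (minus strand) for Pfkl, chr6:124814109-124814408 (minus strand) for Tpi1, chr9:59656977-59657276 (plus strand) for Pkm, chr6:82774405-82774704 (minus strand) for Hk2 and chr7:46845554-46845853 (plus strand) for Ldha.
Pfkl: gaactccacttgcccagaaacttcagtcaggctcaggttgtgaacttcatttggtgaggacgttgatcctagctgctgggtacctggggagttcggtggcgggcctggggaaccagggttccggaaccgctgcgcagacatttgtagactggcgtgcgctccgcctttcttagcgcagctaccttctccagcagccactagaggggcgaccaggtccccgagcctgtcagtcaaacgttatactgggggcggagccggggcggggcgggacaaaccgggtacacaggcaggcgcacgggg
Tpi1: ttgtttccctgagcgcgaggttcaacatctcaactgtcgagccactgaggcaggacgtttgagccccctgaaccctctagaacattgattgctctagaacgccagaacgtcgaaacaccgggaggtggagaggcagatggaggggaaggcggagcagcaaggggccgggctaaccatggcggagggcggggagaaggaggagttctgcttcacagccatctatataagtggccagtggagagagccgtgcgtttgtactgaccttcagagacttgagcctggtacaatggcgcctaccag
Pkm: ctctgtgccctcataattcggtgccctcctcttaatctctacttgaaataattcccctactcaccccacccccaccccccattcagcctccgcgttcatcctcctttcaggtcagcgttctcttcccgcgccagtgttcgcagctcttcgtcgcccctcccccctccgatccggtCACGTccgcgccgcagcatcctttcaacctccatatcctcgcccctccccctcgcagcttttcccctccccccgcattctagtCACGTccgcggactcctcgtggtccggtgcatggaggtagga
Hk2: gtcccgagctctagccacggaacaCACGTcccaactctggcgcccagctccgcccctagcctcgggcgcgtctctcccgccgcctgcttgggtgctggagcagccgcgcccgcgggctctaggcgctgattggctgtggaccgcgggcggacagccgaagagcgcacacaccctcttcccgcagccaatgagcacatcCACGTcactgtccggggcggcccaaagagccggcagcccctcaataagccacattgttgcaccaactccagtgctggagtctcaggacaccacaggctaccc
Ldha: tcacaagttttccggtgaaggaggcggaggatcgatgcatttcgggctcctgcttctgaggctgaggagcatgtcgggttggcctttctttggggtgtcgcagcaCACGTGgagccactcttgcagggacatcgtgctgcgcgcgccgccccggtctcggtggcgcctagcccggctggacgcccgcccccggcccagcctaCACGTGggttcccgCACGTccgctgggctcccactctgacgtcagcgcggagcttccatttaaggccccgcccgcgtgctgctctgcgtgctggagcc

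The Pfkl and Tpi1 windows hold no ACGTG, the Pkm and Hk2 windows hold 2 each and the Ldha window 5, counting both strands of each of its 2 CACGTG. The members without ACGTG in any window, Gpi1, Pfkl and Tpi1, had log2 fold changes of −0.27, −0.42 and −0.28, and those with it, Hk2, Aldoa, Gapdh, Pgk1, Pgam1, Pkm and Ldha, ran from −0.29 to 0.02. This is a description of letters in these windows, not of binding.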

How the data were processed

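The deposited table gives raw read counts for every gene in the 6 libraries, beside symbols and mm10 positions. The libraries are polyA-selected and from an MGI instrument, per the labels' protocols. The submitters' processing notes name STAR 2.7.3a, mm10 and featureCounts, and the annotation, strand setting and read filters were not given in these sources. The length column equals the whole gene span in all 23197 rows, so counts may hold intronic reads, and reads shared with overlapping genes or processed pseudogenes may be lost. Exonic shares, transcript lengths and GC came from GENCODE M21 (GRCm38).

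Genes were kept by filterByExpr (13234), TMM-scaled and fitted by edgeR 4.0.16 quasi-likelihood (robust, group as the only term) in R 4.3.3, with Benjamini-Hochberg adjustment over all genes tested and a threshold of 0.05. Each SE was derived from the fold change and its F statistic. Ratios within a library used counts plus 2 and a two-sided exact permutation test. Alternatives were other scalings, DESeq2 1.42.0, limma-voom 3.58.1, other count filters, a fit without robust weights, a block on replicate number, removal of GC and length trends, a restriction by gene overlap, and each library left out. The lowest member count was 3674 and counting intervals cover counting error only. Pairs of libraries within a group had a chi-square per degree of freedom between 6.06 and 22.1, so they differed by more than sampling noise. The members and lists were chosen with earlier results of these data known. The named genes are the 10 members, Arid3a, the tested isozymes, of each other list the 2 most abundant and the 1 with the smallest p, and the 5 most alike; Slc16a3 was added after its values were seen. 1 tested isozyme is not reported here and is in none of the counts or medians of its list, so these do not cover every isozyme tested. List genes with no row under their symbol were not analysed here.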

Additional observations from a re-analysis of the deposited data

How the results depend on the processing

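With the filter on low counts removed, edgeR called 439 genes and 3 members (Pfkl, Tpi1 and Pkm), against 0 and 0. Taking out the dependence on GC and length, it called 362 genes and 3 members (Gpi1, Pfkl and Tpi1). DESeq2 called 223 genes and 3 members. With 1 library left out, edgeR called 0 to 135 genes and 0 to 1 member (Pfkl), with 135 genes without control library 2, 94 without control library 3 and 37 without siArid3a library 2, 9 to 10 members lay below 0, and the median log2 fold change of the members was −0.25 to −0.20. The cause of these shifts was not tested. In every alternative fit with all 10 members, 9 or 10 of them lay below 0, and with genes of at least 90% exonic bases outside other genes 6 of 7 did. The median of all genes moved by less than 0.1 under each scaling. The replicate block called 0 genes; same-numbered libraries did not deviate together (r = 0.0296, −0.179 and −0.0848), so the numbers were not taken as pairs.

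Of 167 alternative values for the members, 155 kept their sign and side of the threshold, 11 passed it and 1 changed sign: Hk2 ran from −0.0218 to 0.0787 with 1 library left out. The value of Arid3a was 0.0219 with the trend removed and −0.13 to 0.0841 with 1 library left out. Near 0, signs turned with the trend removed for Eno1 (0.0072), Gaa (0.0094), Mdh2 (0.0128), Tkt (0.0176) and Vegfa (0.0112), and for Mdh2 with RLE (0.0021) and DESeq2 (0.0020). With 1 library left out, Eno1 ran from −0.11 to 0.0042, Gaa from −0.19 to 0.0448, Mdh2 from −0.0332 to 0.0435, Tkt from −0.0787 to 0.0637, Vegfa from −0.0938 to 0.0712, Klf4 from −0.02 to 0.19, Pdha1 from −0.0401 to 0.0178, Trp53 from −0.0063 to 0.0733, Psat1 from −0.0072 to 0.14 and the Aldoa to Aldoc ratio difference from −0.11 to 0.36. Leaving libraries out of the neighbouring-step ratios was chosen after the data were seen: Pgk1 to Gapdh ran from −0.0067 to 0.16, Pgam1 to Pgk1 from −0.0203 to 0.13 and Eno1 to Pgam1 from −0.0593 to 0.0616, and the other 7 kept their sign. Of 624 alternative values of other named genes, 25 passed the threshold and 21 changed sign.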

Other observations

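Gapdh is often used to scale other transcripts, so its count was set against those of 5 other common reference genes within each library, a choice made after its values were seen. The log2 ratio of Gapdh to Actb averaged 1.22 ± 0.0152 over the controls and 0.99 ± 0.141 over the siArid3a libraries (SD, n = 3 each), which differ by −0.23. The difference was −0.22 against Rplp0, −0.34 against Tbp, −0.28 against Ppia and −0.49 against Hprt. These differences also hold any difference in the reference genes themselves, so they do not give the size of the Gapdh difference. Gapdh alone had a log2 fold change of −0.19, with overlapping groups. The groups did not overlap for Actb, Rplp0 and Tbp and overlapped for Ppia and Hprt. The two-sided exact permutation test gave p = 0.1 for the first 3, the smallest that 3 against 3 libraries can give, and an adjusted p of 0.167 over the 5 ratios.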
